A study of Mus musculus with 4 samples.

Results

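CHD8 sites were examined along the stretch of mouse chromosome 17 from 23.5 to 37.5 Mb (mm9), which ends in the major histocompatibility complex (MHC). All peaks with a summit in this window were taken, except those in 3 short intervals at 29.2 to 29.25, 34.24 to 34.27 and 35.62 to 35.66 Mb. This gave 431 of 22706 peaks in replicate 1 and 573 of 31002 peaks in replicate 2, and the left-out intervals held 13 and 23 peaks. Counts and rankings of the window in the main results do not include these intervals. Peaks that overlapped between the replicates formed 346 shared regions in the window, of 17867 in the genome. The part from 33.8 Mb on is called the MHC part and held 125 and 173 peaks and 103 shared regions. The part before it is called the proximal part and held 306 and 400 peaks and 243 shared regions. The rest of the chromosome, outside the window, held 639 and 884 peaks and 506 shared regions.

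The cells were mouse embryonic stem cells kept in 2i medium on gelatin, in which both endogenous copies of Chd8 end in a 3xFLAG tag. Such cells can form all tissues of the embryo, and 2i medium keeps them in a naive state by inhibiting MEK and GSK3. The series has 1 condition, with 2 samples precipitated with an antibody against FLAG and 2 input samples without antibody; the inputs enter here only through the background of the peak calls. No precipitate from untagged cells was analysed here, so peaks that the antibody gives without tagged CHD8 cannot be told apart. The labels do not say whether the replicates came from separate cultures or, for the tagged line, how many clones were used, so the spread between replicates may be technical. Genome-wide coverage, recovered from the peak statistics, was 3.44 ChIP reads per base in replicate 1 and 3.56 in replicate 2.

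CHD8 belongs to the chromodomain helicases, enzymes that use ATP to move or restructure nucleosomes, and it is best known for binding near active promoters and for loss-of-function mutations in autism. The MHC is among the most gene-dense parts of mammalian genomes. Its class I and class II genes encode the molecules that present peptides to T cells, and embryonic stem cells express these genes weakly. Between and beside them lie class III and framework genes that most cells use, for RNA processing, chromatin, stress response and translation. The mouse MHC also holds large families of class I-like genes and borders on olfactory receptor genes. An annotation of mm9 was not used here, so peaks are given by position and none was assigned to a gene.

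The window was far richer in CHD8 sites than the rest of chromosome 17, in both replicates. Replicate 1 had 31.1 peaks per Mb in the window (95% exact Poisson interval 28.2 to 34.1) and 8.17 per Mb in the rest of the chromosome (7.55 to 8.83). Replicate 2 had 41.3 per Mb (38 to 44.8) and 11.3 per Mb (10.6 to 12.1). Over the 2 samples the density was 36.2 ± 7.23 peaks per Mb in the window and 9.74 ± 2.22 in the rest (SD, n = 2). Shared regions numbered 24.9 per Mb (22.4 to 27.7) in the window and 6.47 (5.92 to 7.06) outside it. The ratio of these densities was 3.85 (exact conditional binomial interval 3.35 to 4.42), and the separate lists gave 3.8 (3.35 to 4.30) and 3.65 (3.28 to 4.06). The excess was larger than the difference between the replicates, whose ranges inside and outside the window did not overlap. Both flanks were sparser: the ratio was 4.35 (3.52 to 5.41) against the stretch before the window and 3.70 (3.19 to 4.29) against the stretch after it. These intervals cover counting error alone, and neighbouring peaks are not independent, so they are too narrow.

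Control coverage, the local background that the caller took from the input, is known here at called peaks only. It stood above the genome-wide background at 52.4% of window peaks in replicate 1, against 40.7% in the rest of the chromosome. In replicate 2 the shares were 44.3% and 38.5%. The differences were 11.7 percentage points (95% Newcombe interval 5.66 to 17.7) and 5.87 points (0.70 to 11). The MHC part had lower shares than the proximal part, with 45.6% against 55.2% in replicate 1 and 40.5% against 46% in replicate 2. Its differences from the rest of the chromosome, 4.91 points (-4.39 to 14.4) and 2.0 points (-5.74 to 10.08), had intervals that include 0. With the peaks at the genome-wide background alone, an analysis added after the data were seen, the density ratio was 2.72 (2.12 to 3.47). Without the peaks that had at least 2 times that background it was 3.89.

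**Figure D1:**
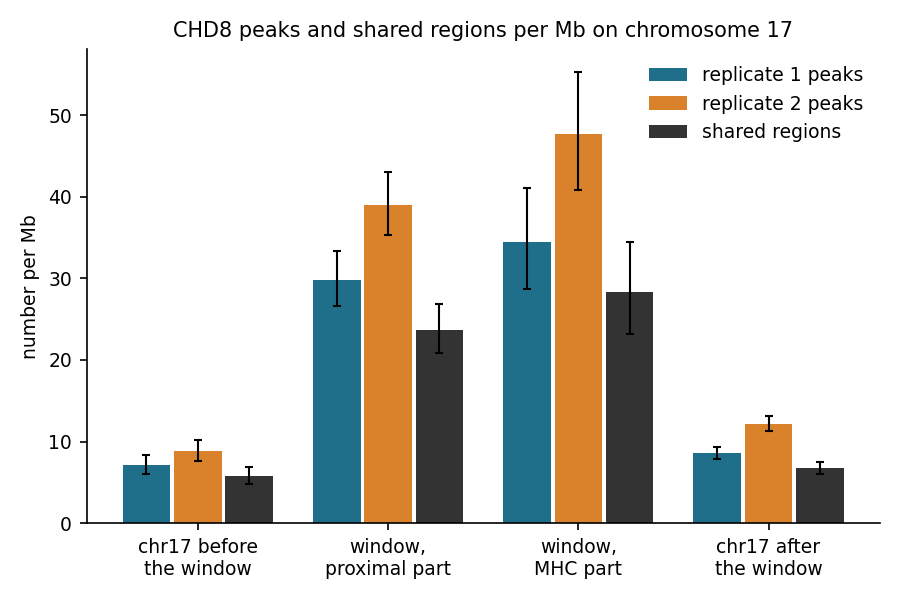
Number of CHD8 peaks per Mb in each replicate and of shared regions per Mb, in the stretch of chromosome 17 before the window, in both parts of the window and in the stretch after it. Error bars are 95% exact Poisson intervals; in replicate 1 the proximal part had 29.9 and the MHC part 34.4 peaks per Mb, and the flanks had 7.10 and 8.55.

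The MHC part and the proximal part were close in density. The MHC part held 28.4 shared regions per Mb (23.2 to 34.4) and the proximal part 23.7 (20.8 to 26.9), a ratio of 1.20 whose interval of 0.94 to 1.51 includes 1. Replicate 1 alone gave 1.15 (0.93 to 1.42), and replicate 2 alone 1.22 (1.02 to 1.46), which lay above 1. Each part exceeded the rest of the chromosome, the MHC part by 4.38 times (3.51 to 5.43) and the proximal part by 3.66 times (3.13 to 4.28). The excess held for the average of each part and not for the MHC part alone. In kilobases covered by shared regions, the MHC part had 33.8 kb per Mb, the proximal part 26.7 and the rest of the chromosome 7.22.

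Within the window the sites were unevenly spaced. In bins of 500 kb the number of shared regions ranged from 2 to 24, with a median of 13. The fullest bin ran from 35 to 35.5 Mb in the MHC part, with 24 shared regions, 29 peaks in replicate 1 and 36 in replicate 2. The next were 34 to 34.5 Mb and 23.5 to 24 Mb, with 19 shared regions each. The emptiest bins were 36.5 to 37 Mb, with 2 shared regions, and 30 to 30.5 Mb, with 3. In the MHC part, the bin from 34.5 to 35 Mb, which lies between 2 of the fullest, held 7 shared regions. The replicates gave the same profile, with a Spearman's rho of 0.90 across the 28 bins, which share their libraries and are no independent samples. Replicate 2 had more peaks in 24 of the 28 bins.

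**Figure D2:**
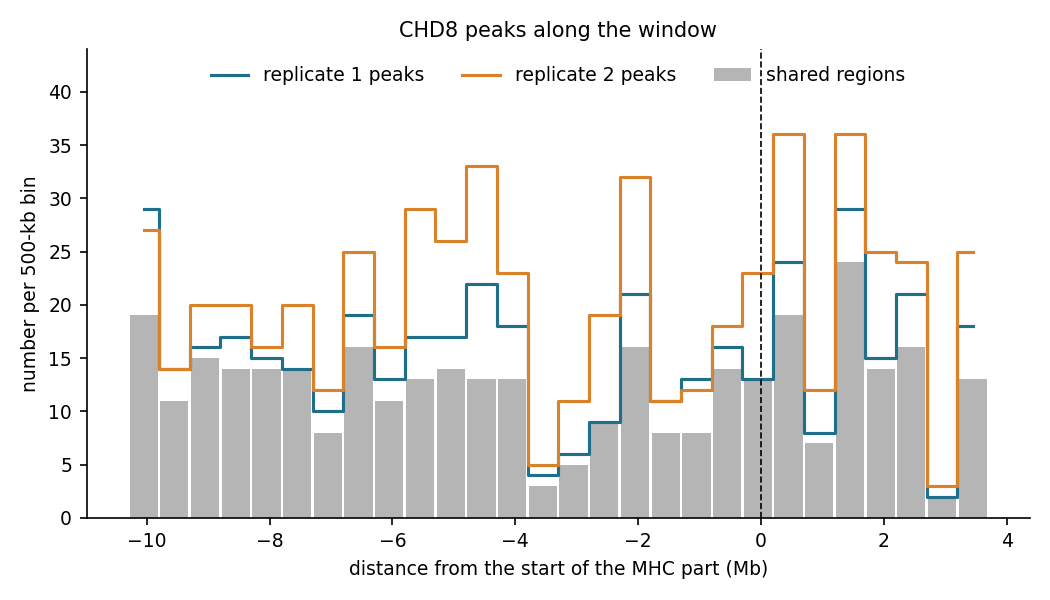
Number of replicate 1 peaks, replicate 2 peaks (lines) and shared regions (bars) in 500-kb bins along the window, by distance from the start of the MHC part (dashed line). The fullest bin, with 24 shared regions, and the emptiest, with 2, both lie in the MHC part.

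On a scale of 100 kb, 35 of the 140 bins of the window held no shared region, which is 25% (95% Wilson interval 18.6 to 32.8). Before the window 67.6% of such bins were empty (61.0 to 73.7), and after it 70.9% (67.0 to 74.4). The fullest 100-kb bin began at 34 Mb in the MHC part, with 11 shared regions, 14 peaks in replicate 1 and 23 in replicate 2. The bin from 25.9 Mb in the proximal part followed with 10 shared regions, and that from 37.1 Mb in the MHC part with 9. Their median fold enrichments were 7.5, 5.50 and 5.54.

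Long stretches without shared regions interrupted this pattern. Of the gaps with a shared region of the window on either side, the longest ran over 570 kb, chr17:30142182-30712283, with no replicate 1 peak and a single replicate 2 peak of fold 3.505. The next, chr17:36452464-36973231 in the MHC part, spanned 521 kb and held no peak of either replicate. The third, chr17:34272814-34535641, spanned 263 kb with no replicate 1 peak and 2 weak replicate 2 peaks, of fold 3.71 and 4.31. Beyond the last shared region, chr17:37219020-37219360, the final 281 kb of the window held none either.

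Neighbouring sites lay closer together than elsewhere on the chromosome. From one shared region to the next, the median distance was 16.7 kb in the window (quartiles 5.73 and 40.4) and 34.0 kb in the rest (9.11 and 101). The gap was at most 10 kb for 123 of 342 pairs of neighbours in the window, 36.0% (31.1 to 41.2), and for 26.6% (22.9 to 30.6) in the rest. For gaps of at most 2 kb the intervals overlapped, with 12% (8.96 to 15.9) and 13.7% (11 to 17). When regions no more than 10 kb apart were linked, 195 of the 346 fell into 72 groups, of which 44 were pairs and 28 held 3 or more. The other 151 regions stood alone. Regions in groups had a median fold enrichment of 5.48 (quartiles 4.40 and 7.97) and single ones 6.33 (4.81 and 9.13).

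The largest group lay in the MHC part, at chr17:34027404-34077967, with 9 regions in 50.6 kb. It mixed strong and weak sites. Its strongest members were chr17:34065674-34068040, with 74 and 86 summit reads in replicates 1 and 2, and chr17:34051842-34053791, with 58 and 71. Its weakest was chr17:34047511-34047935, with 18 and 15 reads, only 74 bp from the region before it. The second group, chr17:31939260-31957569 in the proximal part, held 7 regions in 18.3 kb and was of modest strength throughout, with mean folds of 3.88 to 6.24. The third, chr17:23677086-23688030 near the start of the window, held 6 regions in 10.9 kb, with mean folds of 4.42 to 6.07.

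Shared regions of the window were somewhat stronger than those of the rest of the chromosome. The authors' fold enrichment is the linear ratio of a peak's summit over the local background; a region's fold is the mean of its best peak in each replicate. The median was 5.78 in the window (quartiles 4.54 and 8.62) and 5.44 in the rest (4.38 and 7.43). Of the window's regions, 56.9% (51.7 to 62.0) lay above the median of the rest. In each list alone the interval included 50%: 52.4% of window peaks lay above the median of the rest in replicate 1 (47.7 to 57.1) and 52.4% in replicate 2 (48.3 to 56.4). Against the stretch before the window, where the median was 5.89, the share was 48.3% (43.0 to 53.5).

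Strong sites made up a larger share of the window's regions by some limits and not by others. A fold above 10 was reached by 59 window regions, 17.1% (13.5 to 21.4), and by 57 of the 506 regions in the rest, 11.3% (8.80 to 14.3). Per Mb these are 4.25 (3.24 to 5.48) against 0.73 (0.55 to 0.94). The best 10% of all shared regions in the genome, ranked by the worse of their ranks in the lists, included 49 window regions, 14.2% (10.9 to 18.2), and 9.68% (7.40 to 12.6) of the regions in the rest. The best 1% included 3 window regions, 0.867% (0.295 to 2.52), and 0.988% (0.423 to 2.29) of the regions in the rest. The limit of 10 was chosen with the data in view, and the intervals of the shares overlap at each of these limits.

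A difference in strength between the parts of the window was within counting error. The median fold was 5.84 in the MHC part (quartiles 4.68 and 9.12) and 5.77 in the proximal part (4.53 and 8.25). Of the MHC regions, 52.4% lay above the proximal median (42.9 to 61.8), an interval that includes 50%. The share was 46.8% in replicate 2 alone and 55.2% in replicate 1 alone, so the direction was not fixed. A fold above 10 was found at 23 of 103 MHC regions, 22.3% (15.4 to 31.3), and at 36 of 243 proximal regions, 14.8% (10.9 to 19.8). These intervals overlap.

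**Figure D3:**
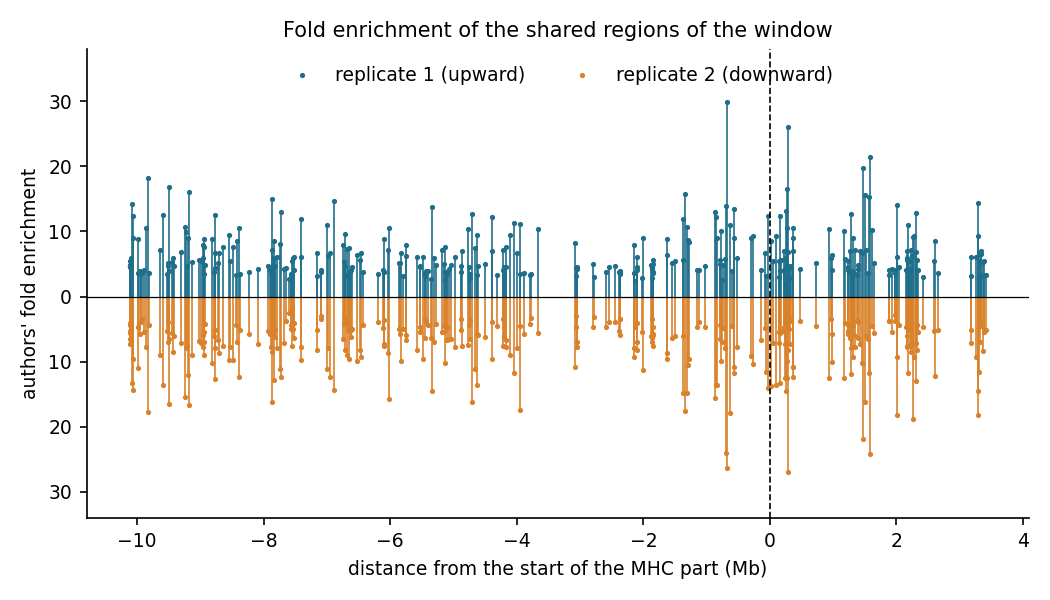
The authors' fold enrichment at each of the 346 shared regions of the window, replicate 1 upward and replicate 2 downward, by distance from the start of the MHC part (dashed line). The tallest lines are chr17:33128927-33131228, with folds of 29.96 and 26.3, and chr17:34091219-34093714, with 26.1 and 26.97. The former lies 669 kb before that border and the latter beyond it.

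The strongest site of the MHC part, outside the left-out intervals, was chr17:34091219-34093714, 2496 bp wide. Its summits held 115 reads in replicate 1 (95% exact Poisson interval 94.9 to 138) and 133 in replicate 2 (111 to 158), and lay 14 bp apart. Its folds were 26.1 and 26.97, a mean of 26.5 ± 0.59 (SD, n = 2), and it stood at place 32 of all shared regions of the genome. It lies 23.2 kb beyond chr17:34065674-34068040 of the largest group, in the same 100-kb bin.

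A further cluster of strong sites lay between 35.2 and 35.4 Mb. The region chr17:35377684-35380494, 2811 bp wide, had 94 and 119 summit reads and folds of 21.4 and 24.3 in replicates 1 and 2. Only 4.08 kb before it, chr17:35372054-35373605 had 67 and 81 reads and folds of 15.3 and 11.8. A second pair, chr17:35271362-35273284 and chr17:35300730-35302869, 27.4 kb apart, ended 69.2 kb before them. The former had 87 and 107 reads with folds of 19.8 and 21.8, and the latter 69 and 79 reads with folds of 15.6 and 16.2. These 4 sites stood at places 122 to 677 in the genome.

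The other strong MHC sites were scattered. On either side of 36 Mb lay chr17:35809940-35810964, the narrowest of the 12 best at 1025 bp, with 81 and 89 reads, and chr17:36115424-36117822, with 56 and 63. At the distal end, chr17:37087929-37089079 had 63 and 90 reads and folds of 14.4 and 18.1, beyond the empty stretch of 521 kb. The region chr17:35087972-35090580 had 55 and 65 reads. All 12 were wider than 1 kb, 7 of them wider than 2 kb, and their mean folds ran from 12.2 to 26.5.

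Outside the left-out intervals, the strongest site of the window lay in the proximal part, at chr17:33128927-33131228. It had 132 reads in replicate 1 (110 to 157) and 146 in replicate 2 (123 to 172), with folds of 29.96 and 26.3, and ranked 7 and 18 in the lists. Strong neighbours lay on either side, 24.7 kb before it and 38.1 kb after it. Before it, chr17:33101875-33104192 had 108 and 118 reads, and after it, chr17:33169351-33170958 had 85 and 99. Their folds differed more between replicates than their reads did, at 13.99 and 24.1 for the former and 11.04 and 17.9 for the latter. In replicate 1 the control at both was 1.97 times the genome-wide background, which lowers the fold; in replicate 2 it was at the background and at 1.18 times.

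Of the 12 best proximal sites, 6 lay before 26 Mb, in the first part of the window. Near its start, chr17:23965277-23967066 had 80 and 87 reads and folds of 18.2 and 17.8, and chr17:23722526-23724708 had 62 and 92 reads. Further on, chr17:24305141-24307151 had 81 and 91 reads, chr17:24550867-24552857 had 72 and 75, and chr17:24615559-24616895 had 74 and 85. The region chr17:25928377-25929841, in the second-fullest 100-kb bin, had 77 and 87 reads with summits 5 bp apart. The rest of the 12 best lay at chr17:26917553-26918575 with 64 and 70 reads, chr17:28465112-28467244 with 66 and 71, and chr17:32456875-32458973 with 69 and 86. The 12 best proximal sites stood at places 9 to 791 in the genome and the 12 best MHC sites at places 32 to 1001. At all 24, the depth-normalised read number was higher in replicate 2, by 1.01 to 1.43 times, as it was at 88.4% of all shared regions. The median ratio was 1.15 at the 12 MHC sites and 1.08 at the 12 proximal sites, below the 1.25 of the genome. These sites were picked for high ranks in both lists, and equally strong regions elsewhere were not compared. Over the window the median ratio was 1.27, and 1.23 in the higher 50% of each list, so the lower ratio is not particular to these sites.

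CHD8 regions of the window were mostly about 1 kb wide. The median shared region spanned 1026 bp in the window (quartiles 662 and 1464) and 963 bp in the rest. Peaks wider than 1 kb made up 25.1% of the window's peaks in replicate 1 and 28.1% in replicate 2. These shares exceeded those of the rest of the chromosome by 2.21 percentage points (95% Newcombe interval -2.94 to 7.5) and 2.76 points (-1.85 to 7.47), and both intervals include 0. Stronger regions were wider, in the window as in the rest. Fold and width had a Spearman's rho of 0.74 across the 346 regions, which come from the same libraries, and of 0.68 in the rest of the chromosome. Both values come from the same peak calls and are not independent measures.

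The widest region outside the left-out intervals was chr17:36052534-36056682 in the MHC part, at 4149 bp. It was a single peak in each replicate with 70 and 92 summit reads. Its folds of 9.11 and 18.8 differed more than its reads, and its control stood at 1.97 times the background in replicate 1 and at the background in replicate 2. The next, chr17:23735396-23739400, spanned 4005 bp and was cut into 3 peaks in replicate 1 and 1 in replicate 2, with folds of 9.01 and 9.55. The third, chr17:34739947-34743615, spanned 3669 bp with folds of 10.4 and 12.5. Most regions were simple: 294 of the 346, or 85.0%, held 1 peak of each replicate, against 84.3% in the genome. In the window, 33 held more peaks in replicate 1 and 13 more in replicate 2.

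Most replicate 1 peaks of the window were found again in replicate 2. Of the replicate 1 peaks, 392 of 431 overlapped a replicate 2 peak, 91.0% (95% Wilson interval 87.9 to 93.3), against 88.9% (86.2 to 91.1) in the rest of the chromosome. Of the replicate 2 peaks, 367 of 573 overlapped a replicate 1 peak, 64.0% (60.04 to 67.9), against 60.2% (56.9 to 63.4). The differences from the rest were 2.06 percentage points (-1.73 to 5.63) and 3.87 points (-1.25 to 8.90), and both intervals include 0. For replicate 2 the flanks differed in direction, with -3.17 points (-10.8 to 4.94) against the stretch before the window and 5.67 points (0.29 to 10.97) against the stretch after it. In the highest quintile of each list by significance, all 116 and all 149 window peaks had a partner. So did all 125 and all 178 peaks of that quintile in the rest of the chromosome. In the lowest quintile 73.8% (61.6 to 83.2) and 26.6% (18.1 to 37.2) of window peaks had one, against 71.7% and 22.9% in the rest. In replicate 2, 62 of 173 peaks of the MHC part and 144 of 400 of the proximal part had no partner, beside 12134 of 31002 in the genome. The shares with a partner were close, at 64.2% in the MHC part, 64.0% in the proximal part and 60.9% in the genome.

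Peaks without a partner were weak and narrow, in the window as in the rest of the chromosome. Replicate 1 had 39 in the window, whose median fold was 3.6 where peaks with a partner had 4.94. Their median width was 280 bp instead of 616 bp. Replicate 2 had 206 in the window, with a median fold of 4.0 instead of 6.32 and a median width of 306 bp instead of 864 bp. In the rest, peaks without a partner had median folds of 3.60 and 3.91 in replicates 1 and 2, where those with a partner had 4.73 and 5.92. Their median widths there were 268 and 309 bp, instead of 564 and 864.5 bp. The best of replicate 2 was chr17:37124274-37126216 in the MHC part, 1943 bp wide, with 32 reads and a fold of 6.73 (4.69 to 9.38, exact Poisson). Replicate 1 had no peak within 3863 bp of it. Next came chr17:31447773-31448220, with a fold of 6.07 and 15146 bp from any replicate 1 peak, and chr17:33737850-33739285, with 5.61. In replicate 1 the best was chr17:35371582-35371951, with 22 reads and a fold of 5.18 (3.33 to 7.73), 102 bp from a replicate 2 peak. It was followed by chr17:27070016-27070301, with a fold of 4.73, and chr17:23742583-23742905, with 4.51.

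Summits of the replicates coincided closely. They lay a median of 87 bp apart in the window (exact order-statistic interval 76 to 99) and 97 bp apart in the rest (88 to 109). In the MHC part the median was 76 bp and in the proximal part 91 bp. The distance was at most 50 bp at 114 of the 346 regions, 32.9%, against 32.1% of all shared regions of the genome. It was at most 743 bp at any region of the window.

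Read numbers of the replicates rose and fell together. Spearman's rho of the summit reads was 0.85 across the 346 regions. After division by ChIP depth, reads were higher in replicate 2 at 310 regions, 89.6%, against 88.4% of all shared regions of the genome. The median ratio was 1.27 (exact order-statistic interval 1.23 to 1.298), against 1.24 (1.22 to 1.27) in the rest of the chromosome and 1.25 in the genome. The ratio was 1.25 in the MHC part (1.19 to 1.32) and 1.27 in the proximal part (1.23 to 1.33).

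An exact binomial test of each shared region around the median ratio, with Benjamini-Hochberg adjustment over the genome, called 0 regions of the window. It called 0 of all 17867 regions, 0%. At an unadjusted p under 0.05 it found 3 of the 346, beside 1.30% of all regions. That share lies far below the nominal 0.05, and only regions called in both replicates were tested. The test was conservative, and its 0 calls do not measure agreement between the replicates. The test sets 1 library against another, and each summit was placed by its own library, so the reads were not counted at 1 fixed position.

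The region with the largest ratio in the genome was among these 3. It is chr17:33735971-33737688 in the proximal part, 62.3 kb before the MHC border, and was singled out after its values were seen. Replicate 1 had 14 summit reads there (7.65 to 23.5) and replicate 2 had 56 (42.3 to 72.7), and the folds were 3.12 and 11.6. The depth-normalised ratio was 3.86, with an unadjusted exact binomial p of 5.15e-05 and an adjusted p of 0.31 around the median ratio. Against the plain ratio of depths its adjusted exact binomial p was 0.015, the only region of the genome under 0.05 there. The control was at 1.11 times the background in replicate 1 and at the background in replicate 2, and the summits lay 228 bp apart. The replicate 2 peak chr17:33737850-33739285 named above, which has no partner, begins 161 bp beyond it. The other regions were chr17:34045304-34047436, with 30 and 61 reads, and chr17:35406859-35407511, with 46 and 37.

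**Figure D4:**
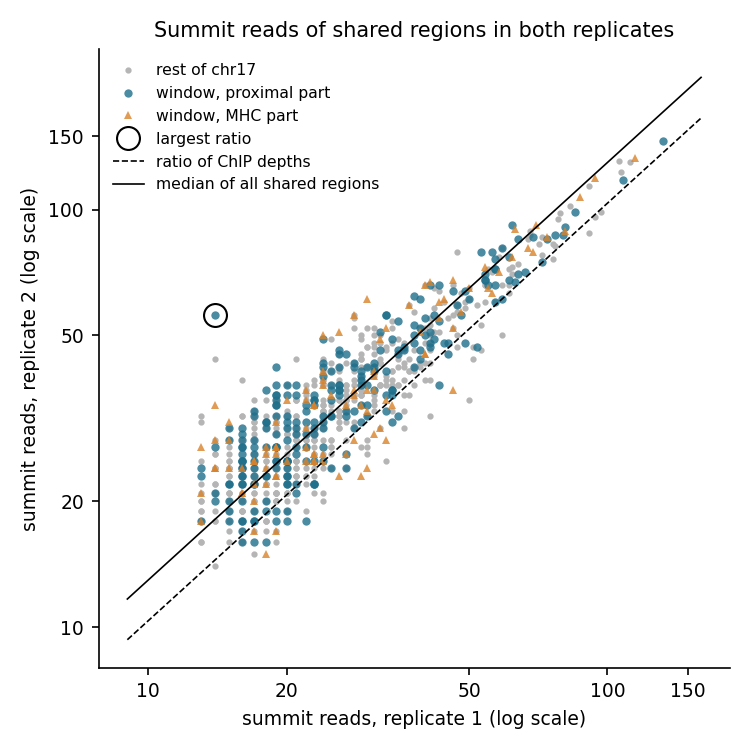
Summit reads of each shared region in replicate 1 and replicate 2 (both axes logarithmic), for the proximal and MHC parts of the window and the rest of chromosome 17. The solid line is the median ratio of all shared regions and the dashed line the ratio of ChIP depths; the circled region has 14 and 56 reads.

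High control coverage was rare in the window. It reached 2 times the genome-wide background at 2 peaks in replicate 1 and 3 in replicate 2, all in the proximal part. In the MHC part it did not exceed 1.97 and 1.96 times. The highest in replicate 2 was at chr17:29348892-29349246, with 3.14 times the background, 34 reads and a fold of 2.81, and it had no partner. The highest in replicate 1 was at chr17:31668589-31669331, with 2.54 times and a fold of 2.47. The other peaks named by the same rule were chr17:26851932-26853814, with 2.26 times and a fold of 6.62, chr17:31773832-31774065, with 1.97 times, a value that 11 replicate 1 peaks of the window shared within 0.001, 2 of them in the MHC part, chr17:26206178-26206889, with 2.36 times, and chr17:29604481-29605201, with 2.36 times.

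The borders of the window fell in gaps between sites. The last shared region before it, chr17:23329606-23330285, had folds of 6.08 and 5.79, and the first inside it, chr17:23677086-23678323, had 5.41 and 6.50. At the border of the MHC part, chr17:33765612-33766676 had 12.4 and 14 and chr17:33821095-33822784 had 8.60 and 13.8. At the end of the window, chr17:37219020-37219360 had 3.38 and 5.12, and the first region beyond it, chr17:37990116-37990547, had 6.08 and 6.73.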

How the data were processed

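Anti-FLAG ChIP sequencing was deposited as 1 peak list for each of 2 ChIP samples, called per sample. Bowtie2 2.1.0, MACS2 2.1.1 and mm9 are named per the submitters' processing notes; the sources used here do not give the caller's options or which input served which ChIP. Libraries were tagmented on beads, per the labels' protocols. The lists have 10 columns and no header. The deposited fold enrichment is a linear ratio, significance is deposited as −log10 of the p-value and of the q-value, and the deposited score holds that q-value's −log10 multiplied by 10, without its decimals. Start, end and summit offset are in bp.

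Summit reads and local background were solved from each peak's fold and p-value with the caller's formulas (a pseudocount of 1, a Poisson tail). The largest misfit in log10 p was 0.00049, and 78 replicate 2 peaks had several solutions, of which the closest was taken. The formulas are not stated by the submitters. The solved values put the replicate 2 ChIP on a scale of 0.714 before comparison with its background, so the pseudocount weighs more in its folds; a region's mean fold is used to compare regions, not replicates.

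Overlap counted from 1 bp; where a region held several peaks of a replicate, the one of highest significance stood for it. Densities of the rest of chromosome 17 run from its first to its last peak, 3.08 to 95.3 Mb. Shares carry Wilson intervals, differences Newcombe intervals, densities and reads exact Poisson intervals, all at 95% and for counting error alone. The named regions are the 12 best of each part by the worse rank, the 3 best without a partner, the 3 highest in control coverage per replicate, the 3 widest regions, the 3 fullest 100-kb bins, the 3 longest gaps and the regions nearest the borders. Members, rules and tests were chosen with earlier results of these data known. The solving, the overlap and the binomial test were tested on simulated data. Python 3.11.15, numpy 2.4.6, pandas 2.3.3, scipy 1.17.1, statsmodels 0.14.6 and matplotlib 3.10.9 were used. Gene assignment, promoter sequences and a list of artefact-prone regions were not used here.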

Additional observations from a re-analysis of the deposited data

How the results depend on the processing

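Of 86 values recomputed under other settings, 71 kept their direction and their side of the threshold. The density ratio of the window to the rest of the chromosome stayed between 2.72 and 4.35 in all of them, with single lists at 3.65 and 3.80. The ratio of the MHC part to the proximal part was 1.20, and single lists gave 1.15 and 1.22. Its interval lay above 1 in replicate 2 alone (1.02 to 1.46) but not in replicate 1 alone. With the peaks at the genome-wide background alone the ratio was 1.56 (1.01 to 2.39), again with an interval above 1. Moving the MHC border by 300 kb gave 1.15 and 1.02. The higher strength of window regions was the least stable result. The share above the median of the rest, 56.9%, fell to 52.4% in each single list and to 52.9% under 50% reciprocal overlap, where the intervals include 50%, and to 48.3% against the stretch before the window. The share of replicate 2 peaks with a partner exceeded that of the rest by 5.40 percentage points under 50% reciprocal overlap and by 5.67 points against the stretch after the window, where the intervals exclude 0; against the stretch before the window it was of the other sign, -3.17 points. In the higher 50% of each list the median read ratio was 1.23 and gaps of at most 2 kb made up 4.90%, with fewer regions in the list. Against the plain depth ratio, 1 window region passed the adjusted binomial test. The share of MHC regions above the proximal median, 52.4%, was 46.8% and 55.2% in single lists, 49.2% in the higher 50% of each list and 48.98% with lists of equal length, all with intervals that include 50%. The cause of these changes was not tested.

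No paired analysis was possible because the inputs, which share the replicate numbers, gave no table of their own and the ChIP samples form 1 group. Width shares come from 1 list each, so leaving out a replicate changes nothing in them. Summits of the window held a median of 22 reads (replicate 1) and 25 (replicate 2), which limits the precision of single sites.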
